A study of Mus musculus with 2 samples.

Results

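The genes described here are 10 regulators of the step from G1 into S phase, taken by name out of the 18131 gene columns that both libraries share. They are the D-type cyclins Ccnd1, Ccnd2 and Ccnd3, the kinases Cdk4 and Cdk6 that D-type cyclins switch on, the later cyclins Ccne1 and Ccna2, their kinase Cdk2, and the inhibitors Cdkn1a (p21) and Cdkn1b (p27). All 10 were found in both tables, and all 10 passed the minimum of 200 unique molecular identifiers (UMIs, the tags that mark single RNA molecules) set for comparisons between the libraries.

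Cells dissected around the cardiac neural crest of C57BL/6 mouse embryos at E9.5 were sequenced singly, with 1 library per genotype. WT stands for the genotype Prdm6+/+; Wnt1-Cre2; ZsGreen1. KO stands for Prdm6f/f; Wnt1-Cre2; ZsGreen1. Both genotypes thus carry the Cre transgene, which is active in the Wnt1 lineage, and the green reporter that Cre switches on. In the study's methods the strain name of the Cre line places the transgene at E2f1, a gene of the same pathway. Cells of other lineages were captured in both libraries, and in those cells of the KO embryos Prdm6 is expected to be intact, so a ratio between the libraries in such cells compares embryos and libraries rather than cells with and without the gene. Cells were not mapped to single embryos here, and with 1 library per genotype no difference has a replicate check and no p-value is given.

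D-type cyclins are made in response to growth signals and bind Cdk4 or Cdk6. The active kinase phosphorylates the retinoblastoma proteins, which releases E2F factors and lets the cell make Ccne1, Ccna2 and the enzymes of DNA replication. Ccne1 and then Ccna2 activate Cdk2 at the start of S phase and during it. Cdkn1a and Cdkn1b bind these complexes and hold them back, and Cdkn1a is also a classical target of p53. In embryos most cells cycle fast, and tissues differ in which D-type cyclin they use.

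There were 11958 WT cells (median depth 1597 UMIs) and 9765 KO cells (median depth 1703 UMIs). The libraries shared 26 cell barcodes, 0.217% of those of WT. Levels are counts per 1000000 UMIs (CPM) of a library or of a class of cells, with exact Poisson intervals, log2 ratios carry exact conditional intervals and shares exact binomial ones, all at 95% and all covering counting error only, with cells and UMIs of 1 library not being replicates of a genotype. Prdm6 itself was counted 104 times in WT and 59 times in KO (5.00 and 3.12 CPM). In the migrating neural crest gate it had 1 and 3 UMIs, and where the deleted part of Prdm6 lies relative to the 3′ tags was not given in the sources used here, so these counts do not check the labels.

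Cells were placed in classes by marker genes, and 12 classes with at least 50 cells in each library were used. A class is named for the cell type whose markers its cells carried and is like that type only by those markers. The classes held 60 to 608 cells in WT and 50 to 406 in KO, with class medians of 1600 to 2336 UMIs per cell in WT and 1916 to 3016 in KO. The rest, 75.5% of WT and 78.9% of KO cells, passed no gate or several, or had too few cardiac markers, and belong to no class. The cardiac gate of at least 3 of 10 markers was passed alone by 3066 WT and 2832 KO cells, and 23.6% of WT and 28.2% of KO cells of the erythroid gate also had 3 cardiac markers. Only the 608 WT and 354 KO cells with at least 7 cardiac markers were therefore kept as cardiac muscle, a limit set after the marker counts were seen. Genes outside the marker lists fitted the names of most gates, such as Cd34 in the endothelial gate and globins in the erythroid gate. In the migrating neural crest gate, defined by Sox10, Foxd3 and others, the leading genes outside the markers were Phactr1 at 6.90-fold over other cells, Hoxb8 and Pax2 at 3.59-fold each, Dab1 at 3.33-fold and Tfap2a at 3.18-fold. Of these Tfap2a is known for the neural crest and Pax2 for the otic epithelium, and Hoxb8 was also a leading gene of the dorsal neural tube gate.

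Over all cells, Ccnd2 stood higher in the KO library and Ccnd3 and Cdk4 stood lower, while both inhibitors had nearly equal levels. The intervals of 6 genes (Ccnd3, Cdk4, Cdk6, Ccne1, Ccna2 and Cdk2) lay below 0, those of Ccnd1 and Ccnd2 lay above 0, and those of Cdkn1a and Cdkn1b held 0. Of all genes with at least 200 UMIs, 29.1% had an interval below 0 and 16.9% above it, and narrow intervals exclude 0 at small differences. Under both other scalings of the libraries, by a trimmed mean of log ratios or a median of ratios, those of Ccne1 and Cdk2 held 0 and 4 genes stayed below it. The shares of all genes were then 20.7% below and 23.3% above 0 with the trimmed mean, and 20.4% and 23.6% with the median of ratios. A log2 ratio of at least 0.32 in size was used as the line for calling a difference. Ccnd3 was the only member past it, which is 1 of 10, against 14.5% of the 10513 genes with at least 200 UMIs. By direction, 10.6% of those genes were past it with KO lower and 3.86% with KO higher, so 1 gene lower and 0 higher among 10 is close to the background. The median log2 ratio of all these genes was -0.06, with 5th and 95th percentiles of -0.44 and 0.30.

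**Figure D1:**
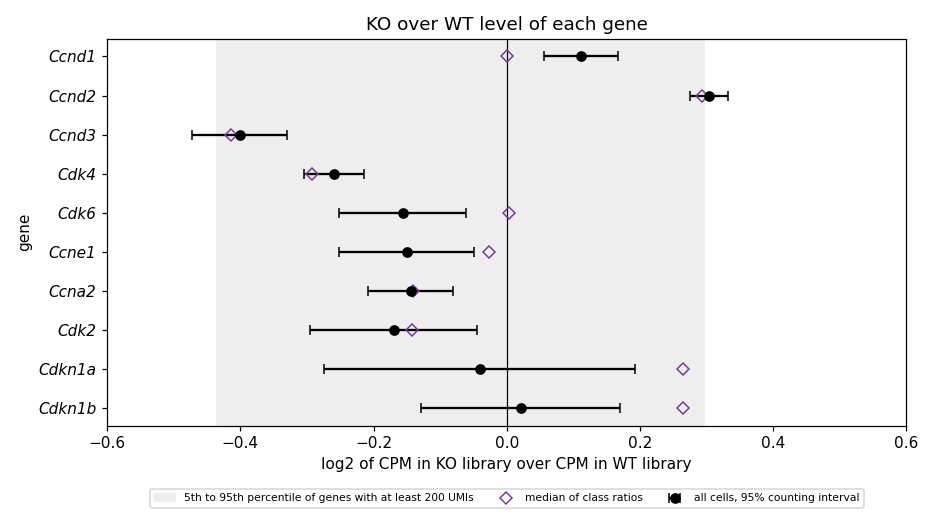
Log2 of the CPM in the KO library over that in the WT library for each of the 10 genes. Black points show all cells with the 95% counting interval, open diamonds the median of the ratios within classes, and the grey band the 5th to 95th percentile of genes with at least 200 UMIs; Ccnd2 at 0.30 sits at the upper edge of the band and Ccnd3 at -0.40 near the lower edge. The diamonds of Cdk6, Ccne1, Cdk2 and Cdkn1a crossed 0 under at least 1 other gate or scaling.

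Ccnd2 lies on chromosome 6 at 127125162 to 127152193 on the minus strand (GRCm38). The gene was counted 18537 times in WT and 20850 times in KO, or 892 against 1101 CPM, more UMIs than any other member. On the log2 scale KO stood above WT by 0.30 (interval 0.28 to 0.33), which placed Ccnd2 at the 95.4th percentile of genes. It stood just short of the line of 0.32, and passed it when the libraries were scaled by a trimmed mean of log ratios (0.36), by a median of ratios (0.36), by a mean over cells of normalised counts (0.33), after each cell was thinned to 1000 UMIs (0.36), without the 5% of cells with most UMIs (0.325) and in the cells of no class (0.33). It stayed short of the line with equal weight to each class (0.24) and without the erythroid-like class (0.29).

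Within classes Ccnd2 was higher in KO in 10 of 12, with 6 intervals above 0. Among the genes with at least 1000 UMIs, 8.98% were higher in KO in at least 10 of 12 classes, and Ccnd2 was the only one of the 9 members of that depth on this side. The limit of 10 classes was set after the ratios were seen. Under either other scaling Ccnd2 was higher in 11 classes, and 12.3% of genes with the trimmed mean and 12.5% with the median of ratios reached the limit. In neural tube progenitor-like cells Ccnd2 stood at 1128 CPM in WT against 1396 in KO, for a ratio on the log2 scale of 0.31 (0.18 to 0.44). Somite-like cells gave 874 and 1180 CPM, a log2 ratio of 0.43 (0.21 to 0.65). Neuron-like cells gave 507 and 751 CPM, a log2 ratio of 0.57 (0.14 to 1.00). Cells of lineages outside the neural crest thus carried the difference too, and the endothelial ratio was 0.37 (0.17 to 0.57).

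Cardiac muscle-like cells stood apart from these classes. Ccnd2 had 1350 CPM there in WT against 1267 in KO, a log2 ratio of -0.09 (-0.19 to 0.01), and this interval did not overlap those of the endothelial, neural tube progenitor, dorsal neural tube, neuron and somite classes. Migrating neural crest gave 919 and 1030 CPM, a log2 ratio of 0.17 (0.01 to 0.32). Pharyngeal mesoderm gave 988 and 963 CPM. The difference between classes was not tested, since each class has 1 library per genotype.

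In the WT library the level of Ccnd2 was highest in cardiac muscle-like cells, and in KO it was highest in neural tube progenitor-like cells. Erythroid-like cells were lowest in both, at 408 and 455 CPM, and endothelial-like cells, at 508 and 655 CPM, were also near the low end. Between neighbours in the order of class means, the intervals were apart in both libraries at 2 steps, from migrating neural crest to foregut endoderm and from endothelial to erythroid-like cells.

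Ccnd1 lies on chromosome 7 at 144929931 to 144939925 on the minus strand. The gene was counted 5334 times in WT and 5250 times in KO, or 257 against 277 CPM, for a log2 ratio of KO over WT of 0.11 (0.06 to 0.17). Within classes it was higher in KO in 6 and lower in 6, none of the 12 intervals excluded 0, and their median was 0.00. Its level was highest in floor plate, at 470 CPM in WT and 449 in KO, and in neuron-like cells, at 461 and 597 CPM. It was lowest in erythroid-like cells, at 103 and 97.0 CPM, and next lowest in cardiac muscle-like cells, at 129 and 121 CPM. No pair of neighbouring classes in this order was separated by its intervals, although the ends of the order were 4.57-fold apart in WT and 6.15-fold apart in KO.

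Ccnd3 lies on chromosome 17 at 47505051 to 47599691 on the plus strand. The gene was counted 3836 times in WT and 2647 times in KO, or 185 against 140 CPM, for a log2 ratio of KO over WT of -0.40 (-0.47 to -0.33), at the 6.09th percentile of genes and 1.32-fold lower in KO. Within classes it was lower in KO in 10 of 12, with 5 intervals below 0 and a median of -0.41. Under either other scaling 2 of these intervals stayed below 0, those of endothelial-like cells and pharyngeal mesoderm. Across genes with at least 1000 UMIs, 11.3% were lower in KO in at least 10 of 12 classes, and 3 of the 9 members of that depth were: Ccnd3, Cdk4 and Ccna2. Under either other scaling Ccnd3 and Cdk4 were lower in 10 classes each and Ccna2 in 7, so 2 members reached the limit, as did 7.59% of genes with the trimmed mean and 7.46% with the median of ratios. In endothelial-like cells Ccnd3 stood at 253 CPM in WT against 190 in KO, for a ratio on the log2 scale of -0.41 (-0.75 to -0.08). In migrating neural crest it stood at 133 and 92.2 CPM, a log2 ratio of -0.53 (-1.01 to -0.05), whose interval held 0 under either other scaling. Pharyngeal mesoderm had the lowest ratio, -1.12 (-1.94 to -0.30), on 30 and 25 UMIs.

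Erythroid-like cells were the class in which Ccnd3 was highest, at 541 CPM in WT and 474 in KO. The intervals of the next class, endothelial, did not touch those of erythroid-like cells in either library. Over the rest of its library the erythroid-like class was higher by a log2 of 1.66 in WT and 1.83 in KO. Only 1.89% of genes with at least 1000 UMIs were at least 2-fold higher in erythroid than in other cells in both libraries, and Ccnd3 was 1 of 9 members past that. Erythroid-like cells made up 3.13% of WT and 1.43% of KO cells, and without this class the log2 ratio of Ccnd3 over all cells was -0.36. Globins took 16.9% of erythroid-like UMIs in WT and 18.0% in KO. In the other classes they took 0.319% to 0.459% in WT and 0.141% to 0.213% in KO. The globin share outside the erythroid-like class was thus lower in KO, as Ccnd3 was, and its part in the Ccnd3 ratio was not tested.

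The other D-type cyclins went the opposite way in erythroid-like cells. Against other cells of the same library, Ccnd1 was lower there by a log2 of -1.35 in WT and -1.53 in KO, Ccnd2 by -1.16 and -1.29, and Cdk6 by -1.73 and -2.16. Of the genes with at least 1000 UMIs, 15.8% were at least 2-fold lower in erythroid-like cells in both libraries, against 3 of 9 members. The make-up of the D-type cyclin UMIs was different there. Ccnd3 gave 51.4% of them in erythroid-like cells of WT (exact binomial interval 47.9% to 54.9%) and 46.2% of KO (41.0% to 51.4%). Over all cells it gave 13.8% in WT and 9.21% in KO.

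**Figure D2:**
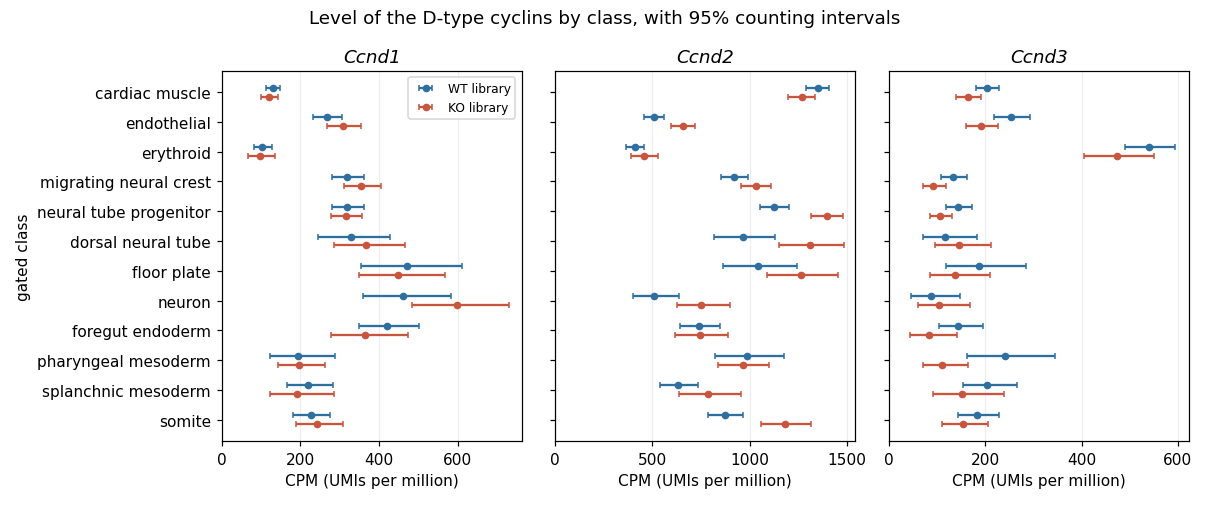
Level in CPM of Ccnd1, Ccnd2 and Ccnd3 in the 12 classes, in the WT library (blue) and the KO library (red), with 95% counting intervals. Erythroid-like cells are highest for Ccnd3 (541 and 474 CPM) and lowest for Ccnd1 and Ccnd2, and cardiac muscle-like cells are high for Ccnd2 and low for Ccnd1.

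The balance between Ccnd1 and Ccnd2 also differed between classes, by more than between the libraries within a class. Of the UMIs of both genes together, Ccnd2 gave 91.3% in cardiac muscle-like cells of WT (89.99% to 92.4%) and 91.3% of KO (89.7% to 92.7%). In neuron-like cells it gave 52.4% (44.0% to 60.8%) and 55.7% (48.9% to 62.4%). Endothelial-like cells gave 65.6% and 67.9%, foregut endoderm 63.8% and 67.1%, and migrating neural crest 74.3% and 74.4%. Over all cells the share was 77.7% in WT and 79.9% in KO. Cardiac muscle-like cells were the highest class in both libraries and neuron-like cells the lowest, and in both the intervals of these 2 classes were far apart. Such shares compare classes and not the genes with each other, because the 3′ capture of each gene is taken to be the same in every class.

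Cdk4 lies on chromosome 10 at 127063534 to 127067920 on the plus strand. The gene was counted 9177 times in WT and 6990 times in KO, or 442 against 369 CPM, for a log2 ratio of KO over WT of -0.26 (-0.30 to -0.21). Within classes it was lower in KO in 11 of 12, and 4 intervals lay below 0, those of cardiac muscle-like cells (-0.46), endothelial-like cells (-0.45), migrating neural crest (-0.30) and neural tube progenitor-like cells (-0.25). Under either other scaling the last 2 held 0. Splanchnic mesoderm was the exception, at 464 CPM in WT and 465 in KO. Levels of Cdk4 varied little between classes, 1.99-fold from lowest to highest in WT and 2.24-fold in KO. The low end was again erythroid-like cells (262 and 208 CPM), and cardiac muscle-like cells, at 307 and 223 CPM, were separated from the next class by their intervals in both libraries.

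Cdk6, on chromosome 5 at 3341485 to 3531008 on the plus strand, is the other partner of D-type cyclins. The gene was counted 1982 times in WT and 1621 times in KO, or 95.4 against 85.6 CPM, for a log2 ratio of KO over WT of -0.16 (-0.25 to -0.06). The classes did not share this direction: 6 were higher in KO and 6 lower, with a median of 0.00. Cardiac muscle-like cells had the only interval below 0, at 124 CPM in WT against 82.0 in KO, for a ratio on the log2 scale of -0.59 (-0.98 to -0.21). The level was highest in floor plate in both libraries, at 222 and 241 CPM, on 26 and 37 UMIs, above the rest of the library by a log2 of 1.23 in WT and 1.51 in KO. Erythroid-like cells were lowest with 29.5 and 19.4 CPM. The share of Cdk6 in the UMIs of Cdk4 and Cdk6 together was 29.9% in floor plate of WT and 38.9% of KO, against 17.8% and 18.8% over all cells and 10.1% and 8.54% in erythroid-like cells.

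The spread between the highest and the lowest class was at least 4-fold in both libraries for Ccnd1, Ccnd3 and Cdk6, which is 3 of the 9 members with at least 1000 UMIs, against 23.5% of all genes of that depth. Ccna2, at 1.91-fold in WT and 1.51-fold in KO, was the most even member.

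**Figure D3:**
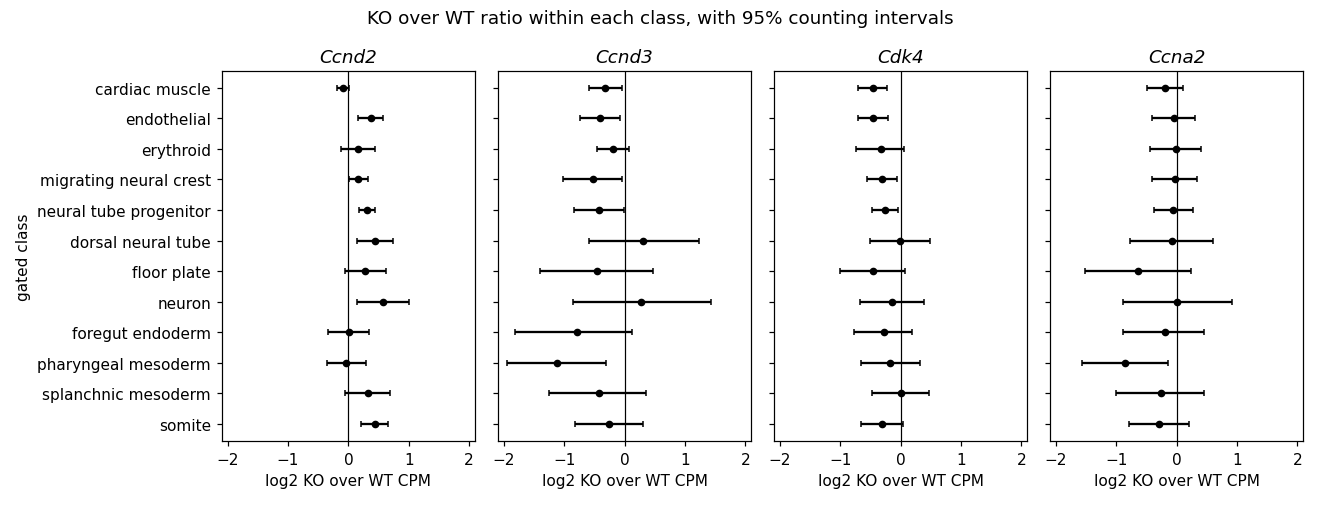
Log2 of KO over WT CPM within each of the 12 classes for Ccnd2, Ccnd3, Cdk4 and Ccna2, with 95% counting intervals. Ccnd2 is above 0 in 10 classes and at -0.09 in cardiac muscle-like cells, Ccnd3 is below 0 in 10 classes, and Cdk4 and Ccna2 are below 0 in 11. Under either other scaling Ccna2 is below 0 in 7 classes and Cdk4 in 10.

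Ccne1 and Cdk2, the cyclin and the kinase that act at the entry into S phase, are shown with the 300 bases around their starts (RefSeq, GRCm38.p6, from 250 before to 50 after the start, 5′ to 3′ on the strand of the gene). Promoters of 7 of the 10 members were in the table used. The E2F-type letters TTTCCCGC or TTTGGCGC, on either strand, were searched because E2F factors are known to act on genes of this step. Of 32851 promoters, 1.56% held one of them, and of the members only Cdk2 did, with 1 match that starts 140 bases before the start. The letters GGGCGG (GC box, either strand) were in 35.7% of promoters, with 4 matches in Ccne1 and 6 in Cdk2. Both Ccnd3 promoters and that of Cdk4 held 2 each, and that of Cdkn1b held 1. Cdk6 had 0, and of the Cdkn1a promoters the first had 0 and the second 2. The letters TTTGAA, known as the CHR element, were in 17.9% of all promoters and in none of the members'. Capitals mark the GC boxes of Ccne1 (chr7:38107441-38107740, minus strand) and the E2F-type match of Cdk2 (chr10:128705002-128705301, minus strand). These are matches of letters and not measured binding sites.
Ccne1: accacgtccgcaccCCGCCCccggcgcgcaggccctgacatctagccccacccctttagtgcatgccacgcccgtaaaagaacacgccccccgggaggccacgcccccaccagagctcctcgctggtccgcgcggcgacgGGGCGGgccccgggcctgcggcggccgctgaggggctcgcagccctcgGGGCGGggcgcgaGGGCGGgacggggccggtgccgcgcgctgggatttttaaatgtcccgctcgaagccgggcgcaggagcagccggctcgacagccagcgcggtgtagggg
Cdk2: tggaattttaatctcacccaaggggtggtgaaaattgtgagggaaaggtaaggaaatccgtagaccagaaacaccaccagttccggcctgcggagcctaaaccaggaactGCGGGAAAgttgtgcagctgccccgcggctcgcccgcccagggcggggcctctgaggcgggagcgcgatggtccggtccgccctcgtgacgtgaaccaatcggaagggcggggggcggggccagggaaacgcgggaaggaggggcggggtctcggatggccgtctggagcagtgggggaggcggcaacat

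Ccne1 (chromosome 7, 38097984 to 38107534, minus strand) was counted 1761 times in WT and 1446 times in KO, or 84.7 against 76.4 CPM, for a log2 ratio of KO over WT of -0.15 (-0.25 to -0.05). The classes did not share a direction, with 6 higher and 6 lower in KO, and the mean of class ratios with equal weight was 0.026. Dorsal neural tube was the highest class in WT at 167 CPM, on 27 UMIs. In KO dorsal neural tube, on 19 UMIs, and foregut endoderm, on 16, both stood at 102.5 CPM. Cardiac muscle-like cells, at 55.7 and 52.1 CPM, and endothelial-like cells, at 40.0 and 52.7 CPM, were near the low end.

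Ccna2 (chromosome 3, 36564865 to 36572150, minus strand) was counted 4395 times in WT and 3625 times in KO, or 211 against 191 CPM, for a log2 ratio of KO over WT of -0.14 (-0.21 to -0.08). It was lower in KO in 11 of 12 classes, or in 7 under either other scaling. Scaled by total UMIs, 10 of these 11 intervals held 0 and only that of pharyngeal mesoderm did not, at 281 CPM in WT and 155 in KO. Neurons are known to leave the cycle, and neuron-like cells had 147 and 148 CPM of Ccna2, on 22 and 24 UMIs. Over all cells the level was 211 and 191 CPM.

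Cdk2 (chromosome 10, 128697939 to 128705031, minus strand) was counted 1164 times in WT and 943 times in KO, or 56.0 against 49.8 CPM, for a log2 ratio of KO over WT of -0.17 (-0.30 to -0.04). It was lower in KO in 8 of 12 classes, every class interval held 0, and the mean of class ratios with equal weight was 0.079. In both libraries splanchnic mesoderm was highest, at 90.4 and 72.2 CPM, on 24 and 9 UMIs.

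To ask how the members vary along the cell cycle, cells with at least 1000 UMIs were thinned to 1000 UMIs and placed in 4 bins. Each bin was set by whether the summed UMIs of 39 S-phase genes and of 50 G2/M genes, neither list holding a member, were above their median over both libraries (6 and 10 UMIs). The minimum of 1000 UMIs left out 1361 WT and 125 KO cells, so the binned cells are unlike parts of the libraries. Of the binned cells, 35.2% in WT and 27.5% in KO were low for both lists, and 16.4% and 23.0% were high for both. The part of the minimum in these shares was not tested. Cells low for both were also the deepest, with medians of 1892 UMIs in WT and 2089 in KO, against 1412 and 1433 in cells high for both. The classes differed: 67.1% of cardiac muscle-like cells of WT and 61.8% of KO were low for both, and 24.1% and 21.3% of neural tube progenitor-like cells. The classes furthest apart between the libraries are named after their values were seen, and the difference was not tested. In migrating neural crest 40.9% of WT (35.4% to 46.5%) and 27.7% of KO cells (22.2% to 33.7%) were low for both. In somite-like cells the shares were 42.9% (35.8% to 50.1%) and 22.8% (16.0% to 30.8%). Erythroid-like cells, at 47.3% and 54.3%, and foregut endoderm, at 37.1% and 49.1%, were higher in KO.

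Most members moved little between bins. Ccna2 was higher in cells high for both lists than in cells low for both, by a log2 of 0.26 in WT (0.12 to 0.39) and 0.28 in KO (0.15 to 0.42). It did not reach 0.32 in either library, and none of the 9 members with at least 1000 UMIs reached it in both, while 3.94% of genes of that depth outside the lists did. Ccne1 in cells high for the S list alone stood at 91.4 CPM in WT and 93.6 in KO, above the cells low for both by a log2 of 0.09 (-0.09 to 0.26) in WT and 0.46 (0.26 to 0.66) in KO. In cells high for the G2/M list alone Ccne1 stood at 70.3 and 62.0 CPM. Against cells low for both this was a log2 of -0.29 (-0.49 to -0.09) in WT and -0.13 in KO, whose interval (-0.36 to 0.09) held 0. Ccnd2 and Cdk4 were also higher in cells high for both lists, and Ccnd3 was lower, from 205 CPM in cells low for both to 171 in cells high for both in WT, and from 152 to 122 CPM in KO. In the cells of no class alone, the Cdk4 difference was 0.09 (-0.02 to 0.20) in WT and 0.13 (0.01 to 0.24) in KO. The intervals of Ccnd2 and Ccnd3 excluded 0 there in both libraries. Within each of the 4 bins Ccnd2 was higher and Ccnd3 and Cdk4 were lower in KO, with no interval holding 0. The share of all genes that meet this rule was not counted. The bins divide the same libraries, so they are no separate check of the ratios over all cells. The ratio of Ccnd2 ran from 0.26 to 0.39 over the bins, and that of Ccnd3 from -0.49 to -0.27.

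Cdkn1a (chromosome 17, 29090976 to 29100727, plus strand) was the rarest member. The gene was counted 325 times in WT and 288 times in KO, or 15.6 against 15.2 CPM, for a log2 ratio of KO over WT of -0.04 (-0.27 to 0.19). Its levels were highest in foregut endoderm (48.1 and 32.0 CPM, on 14 and 5 UMIs), neuron-like cells (33.4 and 24.6 CPM, on 5 and 4 UMIs) and somite-like cells (28.8 and 39.2 CPM, on 12 and 11 UMIs). This order rests on few UMIs: the somite-like level of KO was 8.07 CPM with gates read after thinning and 26.3 CPM with a cardiac gate of 7 markers from the start. Floor plate had 0 UMIs in both libraries, which at 3 counts, the limit set for a count of 0, allows up to 25.6 CPM in WT and 19.5 in KO (the upper ends of the exact Poisson intervals were 31.5 and 24.01 CPM), and erythroid-like cells had 4 and 2 UMIs. In a class or a library no interval of the ratio excluded 0, and 8 of the 12 classes gave a ratio at all.

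By bin, Cdkn1a was the member that differed most. It stood at 23.3 CPM in WT and 22.4 in KO in cells low for both lists. In the other 3 bins it stood between 10.6 and 12.04 CPM in WT and between 9.38 and 14.4 in KO. The log2 differences were -1.06, -0.95 and -1.13 in WT and -0.64, -1.26 and -0.95 in KO, for cells high for S, for both and for G2/M. All 6 intervals excluded 0. Cdkn1a was the only member of 10 lower by at least 0.32 in each of these bins in both libraries, as were 3.05% of genes outside the lists with at least 200 UMIs. The call ended when cells with a Myf5 UMI, described next, were left out, with differences in cells high for S of -0.18 in WT and -0.23 in KO. With bin limits at the upper quartile the difference in G2/M-high cells of WT was -0.54.

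The UMIs of Cdkn1a were concentrated in few cells. At least 1 was found in 237 WT and 230 KO cells, and the 46 WT and 38 KO cells with at least 2 held 41.2% and 33.3% of all its UMIs. Cells with a UMI were deeper than the rest, with medians of 2041 against 1590 UMIs in WT and 2350 against 1688 in KO. Genes of these cells were compared with those of all other cells in CPM, and the genes named from this comparison were chosen after their values were seen. At least 2-fold higher in both libraries were 21 genes, or 0.333% of those with at least 1000 UMIs. The gene furthest up was Myf5, which starts the skeletal muscle programme in the myotome of the somite. It stood at 880 CPM in WT cells with a Cdkn1a UMI and 36.5 in the other WT cells, 24.1-fold apart, and at 282 and 20.1 CPM in KO, 14.0-fold apart.

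Myf5 was found in 58.7% of the WT cells with at least 2 Cdkn1a UMIs (27 of 46, exact interval 43.2% to 73.0%), in 20.4% of those with 1 and in 2.61% of those with 0. In KO it was found in 42.1% (16 of 38, 26.3% to 59.2%), 7.81% and 2.08%. Erythroid-like cells, which should lack Myf5, had it in 3 of 374 cells of WT (0.802%, 0.166% to 2.33%), at a median of 2028 UMIs. In KO it was in 1 of 140 (0.714%, 0.018% to 3.92%), at a median of 2540 UMIs. The part of free RNA or of doublets in the shares of cells with Cdkn1a UMIs was not tested. Others of the 21 are given singly, since no list of their kind was counted. The myosin light chain gene Myl1 was 2.83-fold and 2.96-fold higher in cells with a Cdkn1a UMI, and the transcription factor gene Mef2c 2.87-fold and 2.26-fold. Myl1 was also 20.2-fold higher in cardiac muscle-like cells than in other cells. The claudin gene Cldn6 was 3.13-fold and 3.60-fold higher, the desmosome gene Dsg2 2.37-fold and 3.10-fold, and Epcam 2.28-fold and 2.91-fold. Cdkn1c (p57), the inhibitor related to p21 and p27 and also known in differentiating muscle, stood at 2500 CPM against 583 in WT and at 1584 against 542 in KO. Of the cells with at least 2 Cdkn1a UMIs, 32 of 46 in WT and 30 of 38 in KO were in no class, as were 75.5% and 78.9% of all cells. Cardiac muscle-like were 3 and 4, foregut endoderm 3 and 1, somite-like 2 and 1, and migrating neural crest 2 and 1. Neural tube progenitor-like were 2 and 0, endothelial-like 1 and 1, and neuron-like 1 and 0.

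Since Cdkn1a is a p53 target, other such targets were counted in the same cells. Of 12 with at least 200 UMIs, Phlda3 (log2 1.19 in WT and 0.91 in KO) and Btg2 (0.92 and 0.38) stood past 0.32 in both libraries, while 7.15% of all genes of that depth did. Of these 4 intervals only that of Phlda3 in WT excluded 0. Among the other targets the interval of Ccng1 in KO did, at 0.84 (0.36 to 1.28), while Ccng1 in WT was at 0.24 (-0.40 to 0.81). The median log2 difference of the 12 was 0.09 in WT and 0.26 in KO, against -0.03 and -0.01 for all genes.

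The bin differences of Cdkn1a were smaller in cells with no Myf5 UMI, a comparison added after the data were seen. Without the 353 WT and 227 KO cells that had a Myf5 UMI, Cdkn1a in cells low for both lists had 10.8 CPM in WT against 15.2 in KO. The log2 differences of the other bins then were -0.18, -0.52 and -0.15 in WT, all with intervals that held 0, and -0.23, -0.80 and -0.47 in KO, of which that of cells high for both (-1.43 to -0.19) excluded 0. Of the cells with a Myf5 UMI, 43.6% in WT and 34.8% in KO were low for both lists.

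**Figure D4:**
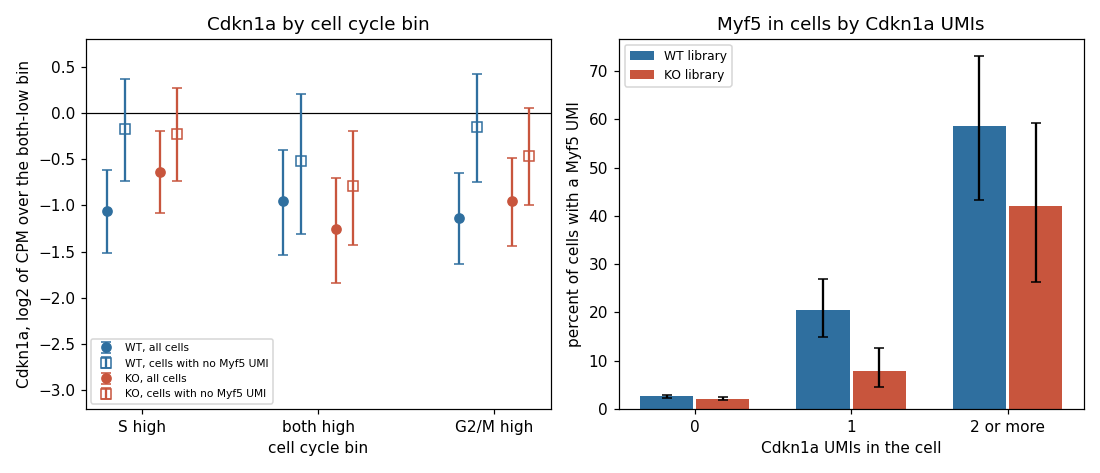
Left, log2 of the Cdkn1a CPM in each cell cycle bin over that in cells low for both lists, for all cells (filled) and for cells with no Myf5 UMI (open), with 95% counting intervals. Right, percent of cells with a Myf5 UMI by the number of Cdkn1a UMIs in the cell, with exact binomial intervals; in WT it is 2.61%, 20.4% and 58.7%, and in KO 2.08%, 7.81% and 42.1%.

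Cdkn1b (chromosome 6, 134920401 to 134925513, plus strand) was counted 769 times in WT and 711 times in KO, or 37.0 against 37.5 CPM, for a log2 ratio of KO over WT of 0.02 (-0.13 to 0.17). It was higher in KO in 9 of 12 classes, and every interval held 0. Its levels ran from 20.6 to 61.8 CPM over the WT classes and from 25.6 to 67.7 CPM over the KO classes, with foregut endoderm lowest in both. In contrast to Cdkn1a, it stood between 34.6 and 39.0 CPM in all 4 cycle bins of WT and between 34.5 and 41.4 in those of KO, and no interval against the cells low for both lists excluded 0.

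The genes whose levels ran most like each member over the 12 classes and both libraries (24 points, log2 of CPM plus 10) were Oraov1 for Ccnd1 (r = 0.92), Psip1 for Ccnd2 (0.80), Creg1 for Ccnd3 (0.86), Cdk2ap1 for Cdk4 (0.91) and Lrp1 for Cdk6 (0.85). For the later genes they were Npat for Ccne1 (0.76), Pcna for Ccna2 (0.76), Cfdp1 for Cdk2 (0.77), Nav1 for Cdkn1a (0.71) and Ube2o for Cdkn1b (0.70). Npat, the histone gene activator, is a known substrate of the Ccne1 kinase, and Pcna is the sliding clamp of DNA replication. These r are descriptions, since the points share libraries and classes differ in depth.

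The gene most like Ccnd1 is also its neighbour. Oraov1, named LTO1 in GENCODE vM21, overlaps the 3′ end of Ccnd1 by 1771 bases on the opposite strand, and 3′ ends are where these tags are read. Oraov1 had 86.5 CPM in WT against 82.8 in KO, a log2 ratio of -0.06 (-0.16 to 0.04), where that of Ccnd1 was 0.11. In all, 5 members have a gene of the opposite strand over their 3′ end, the others being Gm43126 for Ccnd2, Bysl for Ccnd3, Tspan31 for Cdk4 and Exosc9 for Ccna2. The counting software of this platform assigns reads by strand, and the part of the overlap in the likeness of Ccnd1 and Oraov1 was not tested.

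Other genes of the same step were taken from a list of 31, which holds further cyclins, kinases, inhibitors, retinoblastoma proteins and E2F factors. Of the 27 with at least 200 UMIs, 2 were past 0.32 with KO higher and 2 with KO lower, which is again near the background given above, and the median log2 ratio was -0.04 against -0.06 for all genes. E2f1, one of the factors that retinoblastoma proteins hold back, stood out at 55 UMIs in WT against 266 in KO, or 2.65 and 14.0 CPM, for a log2 ratio of 2.41 (1.98 to 2.85). The strain name of the Cre line, carried by both genotypes, places the transgene at E2f1. The part of the transgene in this ratio was not tested, and no difference in expression of E2f1 is read from it. Mnat1, which assembles the kinase that activates Cdks, was at 64.1 and 85.9 CPM, a log2 ratio of 0.42 (0.32 to 0.53). Myc, a growth factor-induced activator of D-type cyclins, was at 39.2 and 25.7 CPM, a log2 ratio of -0.61 (-0.77 to -0.45). Tfdp1, the partner protein of E2F factors, was at 190 and 148 CPM, a log2 ratio of -0.36 (-0.43 to -0.29). Ccne2, the relative of Ccne1, was at 67.0 and 74.9 CPM, a log2 ratio of 0.16 (0.05 to 0.27), on the other side of 0 from Ccne1, and is named here after its values were seen.

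Of 16 p53 targets, 12 had at least 200 UMIs, and 0 were past 0.32 with KO higher and 1 with KO lower, against 3.86% and 10.6% of all genes. That 1 was Plk2, at 22.9 CPM in WT against 17.4 in KO, for a ratio on the log2 scale of -0.40 (-0.61 to -0.19). The median of the 12 was -0.06, the same as that of all genes, and Cdkn1a at -0.04 lay beside it.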

How the data were processed

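Single-cell RNA-Seq was done on 1 WT and 1 KO library from 3′ droplet libraries. Per the labels, Cell Ranger 1.3.1, Scanpy and the build mm10 are named in the submitters' processing notes. The study's methods name a human genome joined with ZsGreen1, and the annotation release is not given in the sources used here. The deposited values are a normalised signal, made by the authors by dividing each UMI count by the total of its cell, scaling and taking the square root, after filters on UMIs and genes and removal of mitochondrial and ribosomal UMIs. Libraries were pooled and demultiplexed with MULTI-Seq. Doublets were removed in the study with a caller and a depth limit, whether before deposit is not said, and no caller was run here.

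Counts were recovered by squaring each value and dividing by the smallest nonzero square of the cell, and 100% were whole within 0.01. Because the unit is not raw counts and there is 1 library per genotype, no count model was fitted. CPM, exact Poisson, conditional and Clopper-Pearson intervals at 95% were computed with Python 3.11.15, numpy 2.4.6 and scipy 1.17.1. Figures were drawn with matplotlib 3.10.9. The code for ratios and intervals was tested on simulated counts. Cells were placed in 12 classes by at least 2 or 3 markers each, and by at least 7 for cardiac muscle. Classes with fewer than 50 cells in a library were not used (myeloid and megakaryocyte, arch mesenchyme neural crest, surface ectoderm).

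The members, gene lists and markers were chosen with earlier results of these data known. Genes named were the 10 members, list genes with at least 100 UMIs, an interval excluding 0 and a log2 ratio of at least 0.32 in size, at most 8 a list, and the most alike genes by Pearson correlation among genes with at least 1000 UMIs, of which the first is printed. Alternatives were 2 other scalings, thinning, cell and class weights, gate stringency and bin limits. Coordinates are from GENCODE vM21 (GRCm38).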

Additional observations from a re-analysis of the deposited data

How the results depend on the processing

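No paired analysis was possible because each genotype has 1 library. The medians of class ratios under other gates and scalings moved by less than 1 SD of the classes, a wide measure that hides changes. Those of Cdk2 (-0.14, up to 0.25) and Cdkn1a (0.26, from -0.20 to 0.82) changed sign, as did those near 0 of Cdk6 (down to -0.15) and Ccne1 (up to 0.073). Ccnd2 ran from 0.18 to 0.35, Ccnd3 from -0.47 to -0.26, Cdk4 from -0.45 to -0.24, Ccna2 from -0.22 to -0.086 and Cdkn1b from 0.061 to 0.44. Over all cells, the ratios with equal weight to each class were 0.032 for Ccnd1, 0.24 for Ccnd2, -0.034 for Cdk6, 0.026 for Ccne1, -0.22 for Ccna2 and 0.079 for Cdk2, so Ccne1 and Cdk2 lie on the other side of 0. Trimmed-mean scaling shifted all ratios by 0.053 and median-of-ratios scaling by 0.056, giving 0.36 and 0.36 for Ccnd2 and -0.21 and -0.20 for Cdk4, and 0.17 for Ccnd1 under the second. Under either scaling Ccna2 was lower in 7 classes in place of 11, a count added after the data were seen. The class intervals below 0 were 2 for Ccnd3 in place of 5 and 2 for Cdk4 in place of 4, the trimmed mean within classes added after the data were seen. After thinning, Ccnd2 stood at 0.36 and Cdk6 at -0.26. Ccnd2 was 0.33 as a mean over cells and 0.33 in cells of no class, the latter added after the data were seen. The other 65 of 80 values stayed within their counting intervals, and Ccnd3 was past -0.32 in all 8 of its alternatives, from -0.45 to -0.34. With no UMI minimum, 33.9% of genes were past a log2 ratio of 0.32 in size, in place of 14.5%.

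With the bin limit at the upper quartile, 9 of 60 bin values left their intervals, among them Cdkn1a in G2/M-high cells of WT at -0.54. In the cells of no class alone, a comparison added after the data were seen, 6 of 60 did. Cdkn1a in somite cells of KO was at 8.07 CPM when gates were read after thinning, in place of 39.2, so its order of classes rests on few cells. The cause of these shifts was not tested. Depth limits the rare members: every class interval of Cdkn1a, Cdkn1b and Cdk2 held 0, and differences inside those intervals were not detectable.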
